A study of Homo sapiens
Mus musculus with 24 samples.

Results

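The genes described here are 9 murine genes of the red blood cell: the adult alpha globins Hba-a1 and Hba-a2, the adult beta globins Hbb-bs and Hbb-bt, the heme synthesis and iron import genes Alas2, Fech and Slc25a37, and the red-cell genes Bpgm and Mkrn1. They were chosen by name from the murine table, where all 9 of the 9 were found among 16667 genes, and all 9 passed the filter on low counts. The choice was made with their difference from the control tumors already known, so their levels and fold changes against that group are a description, and counts of calls there are no independent test.

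Hemoglobin is built from paired alpha and beta globin chains, each holding a heme group that binds oxygen, and red cells carry it through the blood. The circulating mouse red cell has lost its nucleus but enters the blood as a reticulocyte that still holds globin messenger RNA, while its precursors in bone marrow and spleen make globin and heme together. Alas2 starts heme synthesis in erythroid cells and is made in few other cell types, whereas Fech, which inserts iron into the finished ring, is used by every cell with mitochondria. 

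The tumors grew from MDAMB231, a line of human triple negative breast adenocarcinoma cells, injected under the skin of female B6/Rag1KO mice at 14 weeks of age. Mice of this strain lack Rag1 and so have no mature T or B lymphocytes, in every group including the controls. The high-fat diet had been fed for 10 weeks at injection, by the labels, in the first 4 groups: CTRL received weekly saline (n = 4), Chemo received doxorubicin and cyclophosphamide each week (n = 5), MC ate the same diet with moringa concentrate and was given no chemotherapy (n = 5), and MC + Chemo had both the concentrate and the 2 drugs (n = 6). The Lean group (n = 4) ate a lean diet, bore the same tumor and had no intervention. Lean and CTRL thus differ in diet and in the saline injections together. The study names no saline injection for MC, so MC and CTRL may also differ in the injections. Each library is the tumor of 1 mouse and is named by its group and mouse number. Only 1 human line was grafted, and the mice have no mature T or B lymphocytes, which limits how far the groups stand for other tumors.

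Each tumor was read once against the murine and once against the human genome by sequencing of 3′ ends. The murine counts ranged from 3.66e+06 to 9.89e+06 and the human counts from 7.80e+06 to 1.76e+07 per library, and the human share was 47.8% in MC 41 and 60.1% to 74.0% in the other 23 libraries. The human markers VIM, CD44, EGFR, AXL and MSN were read in every library, and ESR1, which the line is expected to lack, had group means of 26.9 to 36.3 normalized counts. Mouse MC + Chemo 5 is named as a combination mouse in 1 label and as an MC mouse in another. Lean 3, MC 41 and MC 42 had an additional RNA cleanup. MC 41, MC + Chemo 5 and MC + Chemo 43 stood apart by murine skeletal muscle transcripts, with means over the 13 of 13 muscle genes found of 3314, 3513 and 5538 normalized counts against 8.17 to 775 in the other libraries. CTRL 17 stood apart by endothelial transcripts, with a mean over the 16 of 16 genes found of 66.98 normalized counts, where the other CTRL libraries had 352 to 471. Values in the text are the authors' normalized counts, which are scaled between libraries, unless raw counts are named.

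Hba-a1 (ENSMUSG00000069919) was lowest in the CTRL tumors. Its normalized counts there were 168, 459, 373 and 397 in mice 17, 31, 44 and 70. They were 2313, 1934, 594, 967 and 2383 in Chemo mice 19, 30, 33, 34 and 67, and 2273, 2290, 1849, 820 and 658 in MC mice 6, 41, 42, 48 and 59. The lowest Chemo and MC tumors thus lay above the highest CTRL tumor, and each of these groups divided into lower and higher tumors. In MC + Chemo the lowest, median and highest values were 1211, 1739 and 4350, and Lean tumors 3, 21, 24 and 54 held 946, 971, 1011 and 1193. The Lean tumors lay close together, within 1.26-fold of each other, where the other groups spanned 2.73-fold to 4.01-fold. Group means were 2124 ± 1183 in MC + Chemo, 1638 ± 812 in Chemo, 1578 ± 788 in MC, 1030 ± 112 in Lean and 349 ± 126 in CTRL (SD; n = 6, 5, 5, 4 and 4).

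Hba-a2 (ENSMUSG00000069917), the second alpha globin gene, had the same order of group means at a lower read count. Its CTRL values were 112, 356, 356 and 276 in mice 17, 31, 44 and 70, against a range of 412 to 2869 in the other 20 tumors. Group means were 1429 ± 772 in MC + Chemo, 1116 ± 569 in Chemo, 1047 ± 535 in MC, 653 ± 43.3 in Lean and 275 ± 115 in CTRL (SD). The transcripts of the 2 alpha genes are nearly identical, as are those of the 2 beta genes, and the counting could have split their reads, so the level of each gene within a pair is uncertain.

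Hbb-bs (ENSMUSG00000052305), a beta globin, gave the most reads of the 9 genes, 98664 raw counts over the 24 libraries. The CTRL values were 352, 1289, 1357 and 895 in mice 17, 31, 44 and 70. The Chemo values were 9025, 5346, 2168, 2161 and 6980 in mice 19, 30, 33, 34 and 67, and the MC values were 3181, 6142, 4747, 1737 and 1770 in mice 6, 41, 42, 48 and 59. Again no treated tumor reached down to the CTRL range, and Chemo 33 and 34 with MC 48 and 59 were the lowest of the treated tumors. The lowest, median and highest MC + Chemo values were 3449, 4480 and 11895, and Lean tumors 3, 21, 24 and 54 had 2578, 2930, 2508 and 2842. Group means were 6037 ± 3395 in MC + Chemo, 5136 ± 3010 in Chemo, 3515 ± 1919 in MC, 2714 ± 203 in Lean and 973 ± 461 in CTRL (SD).

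Hbb-bt (ENSMUSG00000073940), the other adult beta globin, had 56.7, 196, 287 and 103 normalized counts in CTRL mice 17, 31, 44 and 70. It overlapped between CTRL and MC, because MC 48 and MC 59 held 250 and 232, below CTRL 44. The remaining 18 of the 20 tumors outside CTRL lay above all 4 CTRL tumors. Group means were 1073 ± 833 in MC + Chemo, 918 ± 513 in Chemo, 586 ± 343 in MC, 458 ± 32.0 in Lean and 161 ± 102 in CTRL (SD).

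Alas2 (ENSMUSG00000025270), the erythroid enzyme that starts heme synthesis, was read at a far lower count yet moved with the globins. Its CTRL values were 4.80, 13.5, 16.7 and 9.43 in mice 17, 31, 44 and 70, and the CTRL 17 value rests on 5 reads. Chemo mice 19, 30, 33, 34 and 67 had 110.4, 61.6, 28.2, 37.4 and 79.8, and MC mice 6, 41, 42, 48 and 59 had 44.4, 71.6, 53.6, 16.4 and 12.9. As for Hbb-bt, MC 48 and MC 59 fell within the CTRL range and every other treated tumor lay above it. The lowest, median and highest MC + Chemo values were 29.1, 57.2 and 167, and the Lean tumors 3, 21, 24 and 54 held 16.8, 35.6, 23.95 and 26.3. Group means were 73.5 ± 51.5 in MC + Chemo, 63.5 ± 33.1 in Chemo, 39.8 ± 24.99 in MC, 25.6 ± 7.76 in Lean and 11.1 ± 5.14 in CTRL (SD).

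**Figure D1:**
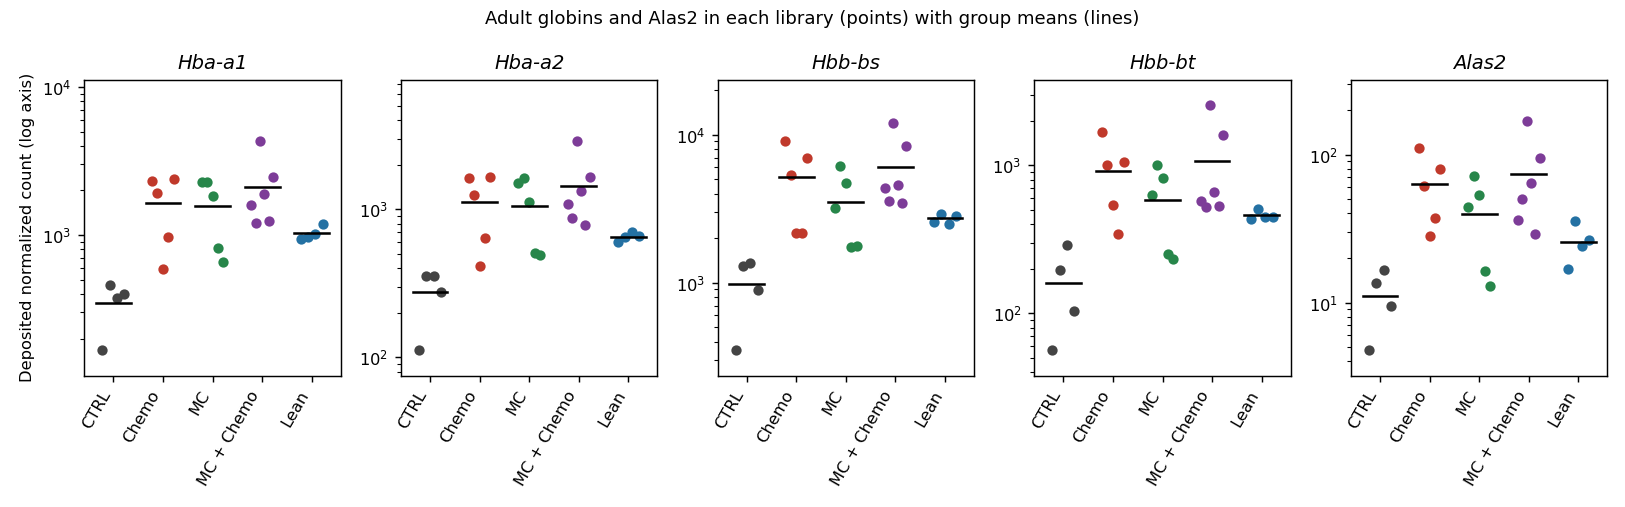
Normalized counts of the 4 adult globins and Alas2 (vertical log axis, each panel spanning 100-fold) in the 5 groups. Each point is 1 tumor and each line a group mean. CTRL 17 is the lowest and MC + Chemo 43 the highest point in all 5 panels, and the 4 Lean points lie close together for the globins.

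For all 5 of these genes the order of the group means was MC + Chemo, Chemo, MC, Lean and CTRL. Only the last step of that order, from Lean to CTRL, separated the tumors of neighbouring groups without overlap, and the other 3 steps did not exceed the spread between tumors. For Alas2 that separation was a near tie, with 16.8 in Lean 3 and 16.7 in CTRL 44, from 20 and 13 reads. CTRL 17 was the lowest and MC + Chemo 43 the highest of the 24 libraries for each of the 5 genes, with 25.5-fold to 45.0-fold between them. In all 20 tumors outside CTRL, Hba-a1, Hba-a2 and Hbb-bs lay above every CTRL tumor. Among all 15029 genes compared, 5 did so, which is 0.0333%, and because the members were picked with this contrast known nothing further is read from that share. Leaving out libraries cannot undo such a separation, so leaving out any 1 library or the 3 libraries with the RNA cleanup tested nothing. In checks chosen after seeing the data, the same 3 globins remained separated when counts were scaled to the murine total of each library. With scaling to the murine plus human total, Hbb-bt also separated.

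The 4 globins together took 0.0122% of the murine counts in CTRL 17 and 0.401% in MC + Chemo 43. The mean share was 0.188% ± 0.115 in MC + Chemo, 0.167% ± 0.0850 in Chemo, 0.105% ± 0.0424 in MC, 0.0946% ± 0.00625 in Lean and 0.0319% ± 0.0139 in CTRL (SD). In raw counts that was 718 to 2660 globin reads in a CTRL library and 2430 to 25619 in the others. These are bulk samples, so more red cells in the piece and more globin RNA per red cell cannot be told apart.

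Fech (ENSMUSG00000024588), the last enzyme of heme synthesis, stayed within a narrow band of normalized counts in 21 of the 24 tumors, 96.9 to 175. The exceptions were MC 41 at 342 and MC + Chemo 43 and 52 at 214 and 221. Group means were 158 ± 49.2 in MC + Chemo, 143 ± 29.6 in Chemo, 179 ± 91.8 in MC, 136 ± 13.3 in Lean and 127 ± 15.1 in CTRL (SD), and the tumors of every pair of neighbouring groups overlapped. Over the 24 libraries log2 Fech had Pearson's r of 0.76 with the adipocyte list (10 of 10 genes found) and 0.62 with the skeletal muscle list. MC 41 and MC + Chemo 52 had the highest adipocyte means, 11090 and 15131 normalized counts, against 59.8 to 3718 in the other libraries, and the part of fat and muscle in the Fech values was not tested.

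Slc25a37 (ENSMUSG00000034248), or mitoferrin, carries iron into the mitochondria of developing red cells and is also made in other cells. Its normalized counts ranged from 110 in CTRL 44 to 240 in Chemo 30. Group means were 151 ± 28.3 in MC + Chemo, 195 ± 43.7 in Chemo, 151 ± 46.2 in MC, 168 ± 24.4 in Lean and 148 ± 32.5 in CTRL (SD). The highest group mean was thus that of Chemo, not of MC + Chemo as for the globins, and neighbouring groups overlapped.

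Bpgm (ENSMUSG00000038871) makes bisphosphoglycerate, the compound that lowers the oxygen affinity of hemoglobin in the red cell. It varied as widely within CTRL as over the whole series, with 181, 376, 108 and 351 normalized counts in mice 17, 31, 44 and 70, which hold both the lowest and the highest of the 24 values. None of the 20 other tumors lay above the highest CTRL tumor. Group means were 274 ± 33.997 in MC + Chemo, 285 ± 42.3 in Chemo, 290 ± 92.8 in MC, 229 ± 56.6 in Lean and 254 ± 130 in CTRL (SD).

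Mkrn1 (ENSMUSG00000029922), a ubiquitin ligase gene whose transcript is abundant in reticulocytes and present in most tissues, varied least, 1.63-fold over the 24 libraries. CTRL mice 17, 31, 44 and 70 had 321, 423, 319 and 327 normalized counts, so 3 of them lay together and CTRL 31 above them. Group means were 441 ± 48.6 in MC + Chemo, 427 ± 40.3 in Chemo, 383 ± 51.2 in MC, 384 ± 21.3 in Lean and 348 ± 50.4 in CTRL (SD). Of the 20 tumors outside CTRL, 7 lay above CTRL 31, and without CTRL 31 all 20 lay above the remaining 3 CTRL tumors. Without CTRL 31, 33 of the 15029 genes compared separated in this way, against 5 with all libraries.

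**Figure D2:**
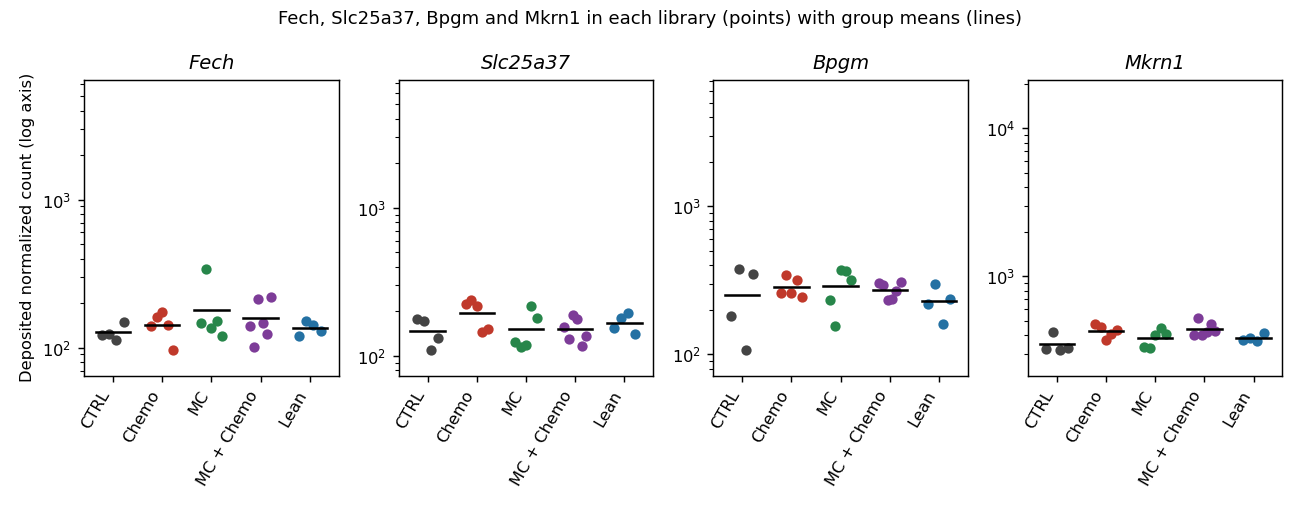
Normalized counts of Fech, Slc25a37, Bpgm and Mkrn1 (vertical log axis, each panel again spanning 100-fold) in the 5 groups, 1 point per tumor with a line at the group mean. The points of all groups overlap, and the whole range is 3.53-fold, 2.17-fold, 3.49-fold and 1.63-fold.

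Against CTRL the 9 genes divided into 5 with large and 4 with small differences. In Chemo the edgeR log2 fold change was 2.23 ± 0.49 (SE) for Hba-a1, 2.03 ± 0.50 for Hba-a2, 2.41 ± 0.54 for Hbb-bs, 2.53 ± 0.63 for Hbb-bt and 2.53 ± 0.61 for Alas2. In MC it was 2.19 ± 0.49, 1.94 ± 0.50, 1.86 ± 0.53, 1.89 ± 0.61 and 1.88 ± 0.60 for the same genes in the same order. In MC + Chemo the values were 2.59 ± 0.49, 2.37 ± 0.50, 2.62 ± 0.54, 2.74 ± 0.62 and 2.73 ± 0.60. Alpha and beta globins therefore differed from CTRL by similar amounts, and Alas2 by about as much as the beta globins. In Lean, which received neither drug nor concentrate, the log2 fold changes from CTRL were 1.57 ± 0.47, 1.25 ± 0.47, 1.49 ± 0.50, 1.53 ± 0.58 and 1.23 ± 0.60 for Hba-a1, Hba-a2, Hbb-bs, Hbb-bt and Alas2.

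For Fech, Slc25a37, Bpgm and Mkrn1 the log2 fold changes from CTRL lay between -0.15, for Bpgm in Lean, and 0.50, for Fech in MC. Fech had 0.30 ± 0.27 in MC + Chemo, 0.17 ± 0.28 in Chemo, 0.50 ± 0.28 in MC and 0.10 ± 0.28 in Lean (SE). Mkrn1 had 0.33 ± 0.14, 0.30 ± 0.14, 0.15 ± 0.14 and 0.15 ± 0.14 in the same order. The Fech value in MC fell to 0.12 when 1 tumor, MC 41, was left out, and the sign of Bpgm changed in Chemo, MC and MC + Chemo without CTRL 44 and in Lean without CTRL 31.

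**Figure D3:**
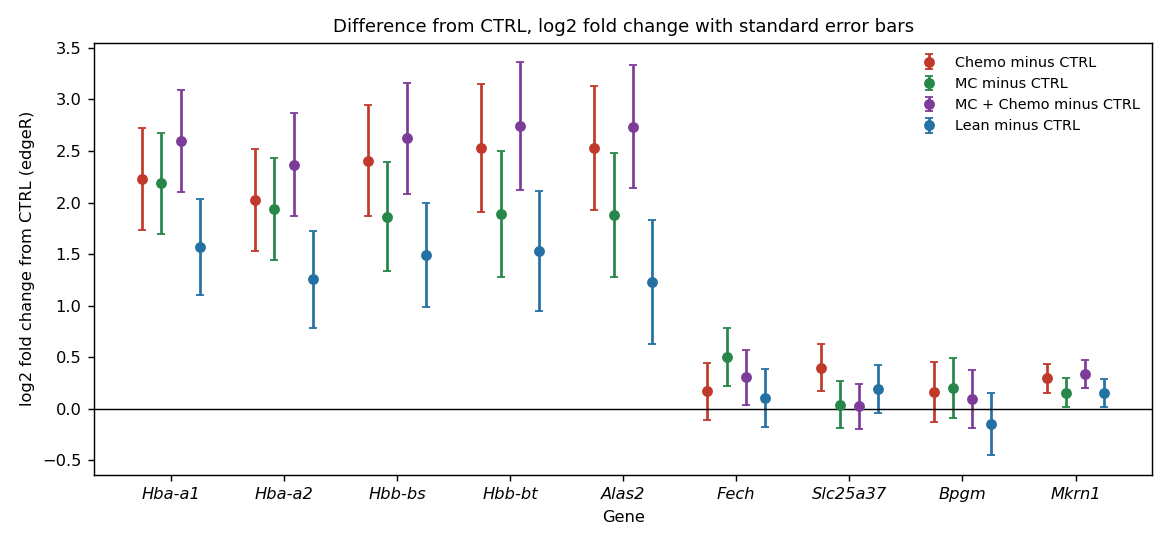
Log2 fold change from CTRL of the 9 genes (horizontal axis) in Chemo, MC, MC + Chemo and Lean, with standard error bars from edgeR. The 4 globins and Alas2 lie between 1.23 and 2.74 in all 4 comparisons, and Fech, Slc25a37, Bpgm and Mkrn1 between -0.15 and 0.50.

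Because the genes were chosen on these differences, counts of them past a threshold against CTRL test nothing and are given only beside the share of all genes. Every tumor of the group lay above every CTRL tumor for 5 of 9 members in MC + Chemo, 5 in Chemo, 3 in MC and 5 in Lean, as it did for 0.926%, 0.66%, 1.15% and 1.46% of all genes. At an adjusted p of 0.05 edgeR's quasi-likelihood test called none of them and 0% of all genes in each comparison, with 6, 6, 5 and 4 members at an unadjusted p under 0.05 in the same order of groups, and 12.4%, 4.53%, 11.8% and 3.11% of all genes. DESeq2, the tool used in the study, called 5 members in MC + Chemo, 5 in Chemo, 3 in MC and none in Lean, and 1.24%, 0.127%, 1.68% and 0.00665% of all genes. The 4 comparisons share the CTRL libraries, so a low CTRL group enters all of them.

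Markers of other cells also differed from CTRL in these comparisons. The summed normalized counts of the skeletal muscle list were 125 to 71996 in MC + Chemo, 140.2 to 2785 in Chemo, 106 to 43088 in MC, 166 to 765 in Lean and 145 to 193 in CTRL, and DESeq2 called 12, 0, 11 and 0 of its 13 genes against CTRL in that order. The adipocyte list had median log2 fold changes from CTRL of 2.69, 0.33, 2.81 and 1.30 in the same order, with 0, 0, 1 and 0 of 10 genes called by DESeq2. The neutrophil list had 1.07, 0.95, 0.19 and 0.72, with 2, 3, 0 and 0 of 12 genes called, among them Ngp and Camp in both groups given chemotherapy. The endothelial list had -0.13, 0.17, 0.57 and 0.56, with 4, 14, 16 and 16 of 16 genes above 0 and none called by DESeq2. No gene of these lists was called by edgeR. The part of these cells in the globin and Alas2 values was not tested.

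The MC values rest partly on MC 41 and MC 42, which had the RNA cleanup and high beta globin counts. Without the 3 cleaned libraries the MC log2 fold changes from CTRL were 1.83 for Hba-a1, 1.59 for Hba-a2, 1.19 for Hbb-bs, 1.20 for Hbb-bt and 1.13 for Alas2. The remaining MC tumors 6, 48 and 59 lay above every CTRL tumor for Hba-a1, Hba-a2 and Hbb-bs. All MC tumors did so, and leaving libraries out could not change this. The part of the cleanup in these values was not tested.

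Comparisons that leave CTRL out were not used to choose the genes and were tested over all genes. Between MC + Chemo and Chemo the globins differed by log2 fold changes of 0.21 to 0.36, with edgeR adjusted p of 0.77 to 0.91. For Hba-a1 the approximate 95% interval of that difference was -0.46 to 1.18, and for Hbb-bs it was -0.67 to 1.11. Both intervals reach above 2-fold. They were made from the SE by a normal approximation, so they are somewhat narrower than the edgeR test implies. Alas2 differed by 0.21 ± 0.48 (SE) and Slc25a37 by -0.38 ± 0.20, with edgeR adjusted p of 0.90 and 0.51. Between MC + Chemo and MC the globin log2 fold changes were 0.41 to 0.85 and that of Alas2 was 0.86 ± 0.49, with adjusted p of 0.55 or more for all 9 genes. MC and Chemo differed by -0.047 to -0.64 for the globins and by -0.65 ± 0.51 for Alas2, with adjusted p of 0.67 or more for all 9. No member passed in these 3 comparisons by edgeR or by DESeq2, where 0% of all genes passed by edgeR and 0.326%, 0.0466% and 1.41% by DESeq2, and none of the members passed an unadjusted p of 0.05 in edgeR, where 11%, 9.87% and 9.77% of all genes did. Without the 3 cleaned libraries the Hbb-bs difference between MC + Chemo and MC was 1.43 and that between MC and Chemo was -1.21.

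The Lean tumors held less globin RNA than the MC + Chemo tumors. All 4 Lean tumors lay below all 6 MC + Chemo tumors for each of the 4 globins, a complete separation that 4.58% of all genes displayed in either direction. The log2 fold changes of Lean from MC + Chemo were -1.03 ± 0.43 (SE) for Hba-a1, -1.11 ± 0.44 for Hba-a2, -1.13 ± 0.47 for Hbb-bs and -1.21 ± 0.54 for Hbb-bt. Alas2 differed by -1.501 ± 0.52, although Lean 21 overlapped the MC + Chemo range. The edgeR adjusted p was 0.27 for Alas2 and 0.29 to 0.34 for the globins, so none passed, and DESeq2 called none of them either, with 0.379% of all genes called. At an unadjusted p under 0.05, 5 of the 9 members passed in edgeR, where 13.6% of all genes did.

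Against Chemo the Lean globins differed by -0.66 to -0.997 and Alas2 by -1.30 ± 0.53, and against MC by -0.34 to -0.67 and -0.63 ± 0.53. The edgeR adjusted p was above 0.96 for every member in both comparisons, and edgeR called 0% of all genes. DESeq2 called no member in either, with 0.0599% and 0.499% of all genes. At an unadjusted p under 0.05, 1 member passed against Chemo and none against MC, with 2.15% and 6.86% of all genes. The Hbb-bs difference of Lean from MC was -0.36 with all libraries and 0.31 without the 3 cleaned ones, so its direction rests on those libraries, as do those of Hbb-bt and Alas2.

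The interaction asks whether chemotherapy made the same difference in mice on MC as in mice without it. CTRL received saline injections and none are named for MC, so the injections may enter the interaction too. For Hba-a1 the log2 difference between chemotherapy and no chemotherapy was 0.41 with MC and 2.23 without it, an interaction of -1.82 ± 0.63 (SE). It was -1.60 ± 0.64 for Hba-a2, -1.64 ± 0.68 for Hbb-bs, -1.68 ± 0.78 for Hbb-bt and -1.67 ± 0.76 for Alas2, and -0.12 to -0.42 for the other 4 genes. The edgeR adjusted p was 0.69 for each of the first 5 genes. Neither edgeR nor DESeq2 called a member, and each called 0% of all genes. At an unadjusted p under 0.05 those 5 passed in edgeR with 6.87% of all genes. The low CTRL values that were known when the genes were chosen enter this difference, so it is not independent of the choice.

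Plain ratios between genes within a library do not depend on the scaling between libraries. For the tests, 1 was added to each normalized count before the log2 ratio. Scaling therefore enters the tested ratios, most for low counts such as those of Alas2. Normalized counts of 3′ ends were used only to ask whether a ratio differed between groups, since levels of different genes were not scaled per transcript. The ratio of Hba-a1 to Hbb-bs was 0.357 ± 0.0388 in MC + Chemo, 0.336 ± 0.0764 in Chemo, 0.464 ± 0.146 in MC, 0.380 ± 0.0393 in Lean and 0.388 ± 0.0910 in CTRL (SD). The alpha to beta balance therefore stayed within the spread between tumors while the globin level spanned 25.5-fold or more. The highest ratio was 0.715, in MC 6.

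The ratio of Alas2 to Hbb-bs was 0.0117 ± 0.00284 in MC + Chemo, 0.0131 ± 0.00244 in Chemo, 0.0107 ± 0.00250 in MC, 0.00936 ± 0.00230 in Lean and 0.0117 ± 0.00151 in CTRL (SD). The ratio of Hbb-bt to Hbb-bs was 0.160 ± 0.0397 in CTRL and 0.161 to 0.186 as a mean in the other groups. Hba-a2 to Hba-a1 was 0.774 ± 0.129 in CTRL and 0.638 to 0.679 as a mean in the other 4 groups. In 2-sided exact permutation tests of the log2 ratio, 4 ratios in 4 groups against CTRL, the lowest p was 0.067 and the lowest adjusted p over the 16 tests was 0.37. The groups overlapped in all 16, and the smallest p that the designs allow is 0.0048 to 0.029.

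Over the 24 libraries the globins varied together. On the scale of log2 (normalized count + 1), Pearson's r between pairs of the 4 globins was 0.93 to 0.99, and 0.88 to 0.99 over the 20 libraries without CTRL. After the mean of each group was subtracted it was 0.87 to 0.98, so tumors of 1 group also varied together. Alas2 had r of 0.96 with the mean of the 4 globins, 0.95 after subtraction of group means and 0.95 without CTRL. Spearman's rho was 0.96. These values share each library's depth and scaling, and are a description without a test. Reads may also have been split within the alpha and within the beta pair. Between an alpha and a beta globin r was 0.93 to 0.97 over the 24 libraries.

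Fech, Slc25a37, Bpgm and Mkrn1 did not follow the globins in this way. Their r with the globin mean was 0.40, 0.0077, 0.074 and 0.43, and after subtraction of group means 0.38, -0.20, -0.21 and -0.10. Without CTRL the r of Mkrn1 with the globin mean was 0.064. Among these 4 genes the highest r was that of Bpgm with Mkrn1, 0.55. Alas2 and Fech, the first and last enzymes of the heme pathway in red cells, had r of 0.41 with each other.

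**Figure D4:**
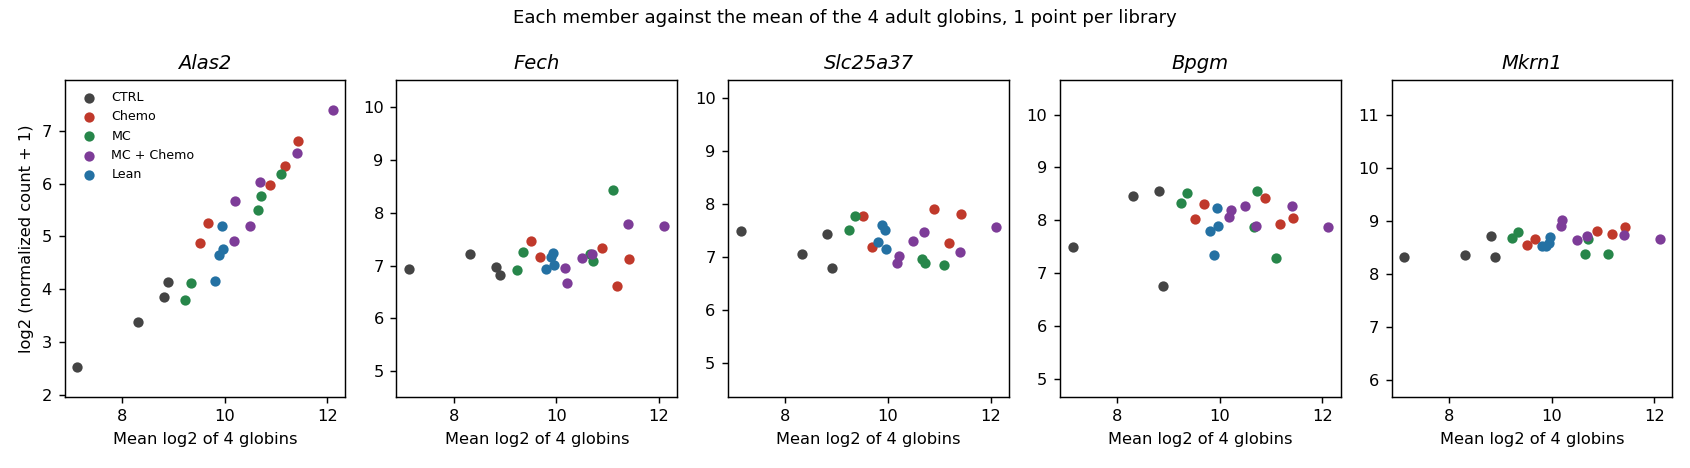
Each of Alas2, Fech, Slc25a37, Bpgm and Mkrn1 (vertical axis, log2 of the normalized count + 1) against the mean log2 of the 4 globins (horizontal axis) in the 24 libraries, coloured by group. All panels span the same vertical distance. Alas2 lies along a line with r of 0.96, and the other 4 genes stay nearly level.

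The rest of the heme pathway was described by a list of 20 enzymes, transporters and heme-degrading genes outside the members. Of the 20, 9 had a log2 fold change from CTRL above 0 in Chemo and 13 did in MC, 15 did in MC + Chemo and 10 did in Lean, where 49.7%, 50%, 51.1% and 48.7% of all genes did. The medians of the list were -0.047, 0.24, 0.18 and 0.0078, beside medians over all genes of -0.0086 to 0.011. No gene of the list was called by edgeR or DESeq2 in any of the 4 comparisons, and at an unadjusted p under 0.05 in edgeR there were 0, 4, 3 and 2 of 20. For this list and those that follow, the shares of all genes at that p were 12.4% in MC + Chemo, 4.53% in Chemo, 11.8% in MC and 3.11% in Lean. Alas1, the form of the first enzyme that all cells use, had r of 0.19 with the globin mean, and no gene of the list exceeded 0.45. Of the 4 most abundant genes of the list in MC + Chemo, Tmem14c, which serves porphyrin import into mitochondria, had a log2 fold change from CTRL of 0.26 ± 0.27 (SE), the heme transporter Slc48a1 0.36 ± 0.21, the heme oxygenase Hmox2 0.46 ± 0.18 and the biliverdin reductase Blvrb 0.72 ± 0.24.

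Among 9 genes of iron uptake and storage none was called by edgeR or DESeq2 in the 4 comparisons, with median log2 fold changes of 0.12, 0.31, 0.33 and 0.088 in Chemo, MC, MC + Chemo and Lean, and 1 gene, in MC, at an unadjusted p under 0.05 in edgeR. The ferritin chains Fth1 and Ftl1 had 0.33 ± 0.20 and 0.48 ± 0.24 in MC + Chemo (SE), the reductase Steap3 0.47 ± 0.29 and the iron-sensing regulator Ireb2 0.026 ± 0.13. The transferrin receptor Tfrc, abundant on red-cell precursors, had r of -0.023 with the globin mean.

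Genes of the red-cell membrane were mostly read at very low counts. Of 19 listed, 11 were in the table and 8 passed the filter, and none was called by edgeR or DESeq2 in the 4 comparisons. At an unadjusted p under 0.05 in edgeR there were 1 in MC + Chemo, 0 in Chemo, 2 in MC and 0 in Lean. The median log2 fold changes were 0.57 in MC + Chemo, -0.16 in Chemo, 1.06 in MC and 0.050 in Lean. The anchoring protein gene Ank1 had 2.38 ± 1.10 (SE) in MC + Chemo, but across the libraries its r was 0.28 with the globin mean and 0.88 with the skeletal muscle list, and that of Sptb was 0.21 and 0.81. In MC + Chemo the other 3 named genes of the list were the water channel Aqp1 with 0.48 ± 0.37, Epb41 with 0.26 ± 0.28 and Gypc with 0.21 ± 0.24.

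Transcription factors and receptors of red-cell precursors had log2 fold changes on both sides of 0. Of 13 listed, 10 were in the table and 9 were tested, none was called by edgeR or DESeq2 in the 4 comparisons, and none passed an unadjusted p of 0.05 in edgeR. The median log2 fold changes were 0.11, 0.15, -0.12 and -0.028 in Chemo, MC, MC + Chemo and Lean. The erythropoietin receptor gene Epor had a mean of 9.54 normalized counts and r of -0.13 with the globin mean, and the highest r of the list was 0.22, for Tal1. In MC + Chemo Lmo2 had a log2 fold change of 0.13 ± 0.17 (SE), E2f2 -0.12 ± 0.34, Lyl1 0.11 ± 0.30 and Zfpm1 -0.30 ± 0.27. Gata1 and Klf1, which define the erythroid lineage, were not analysed here.

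Of 26 genes of late red-cell maturation 19 were in the table and 18 were tested. None was called by edgeR, with 2, 4, 2 and 1 of 18 at an unadjusted p under 0.05 in the 4 comparisons (Chemo, MC, MC + Chemo, Lean), beside the same 4.53%, 11.8%, 12.4% and 3.11% of all genes. DESeq2 called Ube2h in MC + Chemo. Ube2h encodes a ubiquitin-conjugating enzyme that is raised late in red-cell development and is used in many other cells. Its normalized counts were 1550 ± 331 in MC + Chemo, 1340 ± 254 in Chemo, 1280 ± 46.8 in MC, 1064 ± 215 in Lean and 848 ± 297 in CTRL (SD), so its order of group means was that of the globins. The log2 fold change in MC + Chemo was 0.86 ± 0.21 (SE), with an adjusted p of 0.16 in edgeR and 0.011 in DESeq2. In MC + Chemo the antioxidant genes Prdx2 and Gpx1 had 0.46 ± 0.17 and 0.22 ± 0.18, and the survival gene Bcl2l1 had 0.33 ± 0.28.

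Over the 66 genes tested from these lists the r with the globin mean ranged from -0.43 to 0.71 with a median of 0.19. Ube2h had the highest. Of the 2 other globin genes in the table, the muscle globin Mb had means of 341 normalized counts in MC + Chemo, 6.59 in Chemo, 300.5 in MC, 3.49 in Lean and 0.471 in CTRL, and r of 0.97 with the muscle list. DESeq2 called Mb in MC and in MC + Chemo, and edgeR in neither. Cygb had r of 0.20 with the globin mean.

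The 10 genes outside the members with the highest r with the globin mean, among 13851 genes ranked, were Areg (0.77), Tuba4a (0.73), Phlda3 (0.71), Ube2h (0.71), Mal2 (0.70), Krt17 (0.70), Fam117a (0.69), Cog8 (0.68), Mpv17 (0.68) and Cldn4 (0.68). All lay well under the 0.96 of Alas2, and after subtraction of group means they fell to 0.30 to 0.63. Areg is a ligand of the epidermal growth factor receptor, Krt17 a keratin and Cldn4 a tight junction protein of epithelia. Areg had 222 ± 123 normalized counts in CTRL and 569 ± 190 in MC + Chemo, and Tuba4a, an alpha tubulin, had 710 ± 113 and 1680 ± 444 (SD). The log2 fold change of Tuba4a in MC + Chemo was 1.23 ± 0.23 (SE), with an adjusted p of 0.10 in edgeR and 0.00039 in DESeq2.

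Other cells of the tumor piece were set beside the level of Hbb-bs by their marker lists. None of 7 measures passed a permutation test after Benjamini-Hochberg adjustment, of the pooled r or after subtraction of group means. The skeletal muscle list had Pearson's r of 0.44 (permutation p = 0.029, adjusted 0.21; Spearman's rho 0.49, permutation p = 0.015, adjusted 0.11), and r was 0.31 without the 2 libraries farthest from the median. The neutrophil list, with 12 of 13 genes found, had r of -0.018 (permutation p = 0.93, rho 0.043, permutation p = 0.85) and -0.52 within groups (permutation p = 0.027, adjusted 0.19). The endothelial list had r of 0.12 (permutation p = 0.56, rho -0.28, permutation p = 0.18), which became -0.49 without the 2 farthest libraries, so its direction rests on them.

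CTRL 17, the tumor with the least globin, also had the lowest endothelial mean of the 24 libraries. MC + Chemo 52 had the next lowest endothelial mean, 115 normalized counts, and an Hbb-bs value of 8383, below only MC + Chemo 43 and Chemo 19. Leaving out CTRL 17 lowered the Hba-a1 log2 fold change in Chemo from 2.23 to 2.00. The platelet list, of which 6 of 12 genes were found, had r of -0.34 with Hbb-bs (permutation p = 0.10, adjusted 0.24; rho -0.39, permutation p = 0.057). Macrophages, adipocytes and the human share of the counts had r of -0.023, 0.37 and 0.018, with adjusted permutation p of 0.24 or more.

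In the human table the beta-type globins HBB and HBD were read in every library, with 2998 and 1529 raw counts in all, although the grafted line is of breast origin. HBB amounted to 0.746% to 4.28% of the murine Hbb-bs plus Hbb-bt count of the same library, and HBD to 0.469% to 1.75%. Their log2 levels had r of 0.91 and 0.95 with murine Hbb-bs over the 24 libraries, and 0.85 and 0.87 after subtraction of group means. Human and murine beta globin messages are alike in sequence, and how reads that match both genomes were counted is not given in the sources used here, so human globin transcription and murine reads counted as human cannot be told apart.

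**Figure D5:**
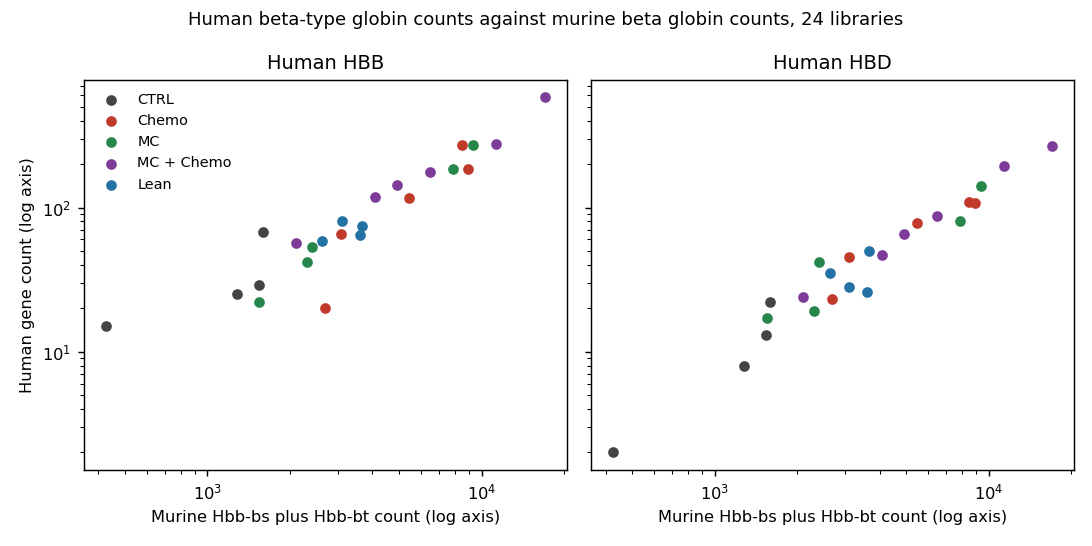
Raw counts of human HBB (left) and HBD (right) against the summed raw counts of murine Hbb-bs and Hbb-bt (both axes logarithmic) in the 24 libraries, coloured by group. The human counts increase with the murine counts, from 15 and 2 in CTRL 17 to 580 and 266 in MC + Chemo 43.

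Of the human genes with the names of other members, BPGM had r of 0.70 with murine Bpgm and MKRN1 of 0.65 with Mkrn1, while SLC25A37 had 0.40 and FECH -0.23. No values are given here for human counterparts of Alas2, Hba-a1 and Hba-a2. BPGM had group means of 1183 ± 569 normalized counts in MC + Chemo, 1023 ± 264 in Chemo, 617 ± 258 in MC, 604 ± 233 in Lean and 525 ± 389.9 in CTRL (SD). Its count over all libraries was 305% of that of murine Bpgm, that of MKRN1 255% of murine Mkrn1, and that of SLC25A37 1559% of murine Slc25a37. The part of human reads in the murine counts of these 3 genes was not tested.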

How the data were processed

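RNA from 24 tumors of different mice was sequenced from the 3′ end with QuantSeq libraries and 50-base reads. The authors deposited raw counts per gene and DESeq2-normalized counts, a signal scaled between libraries, for the murine and the human genome. The submitters' processing notes name DESeq2 1.22.2 and GRCm38, and the study names BlueBee for alignment. The build of the human table and the handling of reads matching both genomes are not given in the sources used here. Murine counts ranged from 3.66e+06 to 9.89e+06 per library, and their number limits the precision of low genes such as Alas2. Every gene in the murine table had at least 72 counts over the libraries.

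Counts were fitted with edgeR 4.0.16 (TMM, filterByExpr, quasi-likelihood test, Benjamini-Hochberg adjustment over all genes, threshold 0.05), on 20 libraries, or on 24 where Lean entered. DESeq2 1.42.0 was an alternative. Both were also run on simulated data with planted changes, and the outcome is not given here. Ratios were compared by 2-sided exact permutation, and correlations used log2 (normalized count + 1) with 100000 permutation draws. Groups came from sample titles; for mouse 5 another label names MC. Leaving out libraries or rescaling the counts that separated from CTRL was added after seeing the data.

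The members and lists were chosen with earlier results of these data known. Named genes are the members, the 4 most abundant genes of each of 5 red-cell lists, listed genes called against CTRL, human genes of the members' names, and the 10 genes, with a mean of at least 10 normalized counts, most correlated with the globins. No nucleotide or protein sequence was used here. Some genes of the red-cell lists are not reported here by name.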

Additional observations from a re-analysis of the deposited data

Results flagged for a closer look

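Among 45 groups of values checked, 9 genes in 5 groups, 2 held a tumor farther from its nearest neighbour than Dixon's 95% critical value allows, where chance gives about 5%. Fech in MC 41 was 342 normalized counts, against 119 to 152 in the other 4 MC tumors. Mkrn1 in CTRL 31 was 423 normalized counts, against 319 to 327 in the other 3 CTRL tumors. MC 41 was also the library with the lowest human share, 47.8%, and with high muscle and adipocyte transcripts.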

How the results depend on the processing

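In leave-one-out fits and under the other settings edgeR called no member in any comparison, with adjusted p of 0.053 or more. DESeq2 called 5 members in Chemo, 3 in MC and 5 in MC + Chemo against CTRL, differences on which the members were chosen. It called 0.127%, 1.68% and 1.24% of all genes in these comparisons. Of the other listed genes it called 1 in MC, the muscle globin Mb, and 2 in MC + Chemo, Mb and Ube2h. No paired analysis was possible because no mouse number is shared between groups. The log2 fold changes of the globins and Alas2 against CTRL kept their direction under every alternative. Signs changed for Bpgm and Slc25a37 against CTRL and for several genes, globins included, in comparisons without CTRL, and the cause was not tested. Against CTRL, scaling to library totals changed the sign of Slc25a37 in MC and in MC + Chemo and of Bpgm in MC + Chemo. Scaled to murine totals, MC + Chemo minus Chemo became -0.028 for Fech and -0.12 for Mkrn1, and scaled to murine plus human totals -0.075 and -0.17. MC + Chemo minus MC became 0.16 for Fech without the cleaned libraries and 0.00072 with murine totals, and for Slc25a37 0.0013 in DESeq2, 0.00041 with its size factors, 0.034 with murine totals and 0.0028 in a fit of only the groups compared. MC minus Chemo became -0.038 for Fech without the cleaned libraries, -0.029 for Fech and -0.14 for Bpgm with murine totals, and -0.054 for Bpgm with murine plus human totals. Without the cleaned libraries Lean minus MC became 0.31 for Hbb-bs, 0.35 for Hbb-bt, 0.27 for Alas2, 0.0079 for Fech, -0.022 for Slc25a37 and -0.029 for Mkrn1. For Mkrn1 it also became -0.0045 in DESeq2, -0.00012 with its size factors and -0.0014 with mouse 5 counted as MC. With murine plus human totals Lean minus MC + Chemo became 0.029 for Fech, 0.040 for Bpgm and 0.089 for Mkrn1. With a pseudocount of 5 the log2 ratio difference from CTRL became -0.0048 for Hbb-bt to Hbb-bs in MC and -0.32 for Alas2 to Hbb-bs in Chemo, and the first became -0.024 with mouse 5 counted as MC. The r of Hbb-bs with the neutrophil list became 0.034, 0.044 and 0.19 with scaling to the total of both genomes, without the cleaned libraries and without the 2 farthest libraries, and with the macrophage list 0.011, 0.044 and 0.081. With the human share it became -0.11 under the first of these, and with the endothelial list -0.49 under the last.

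Leaving out 1 library at a time, the difference from CTRL ranged for Bpgm from -0.089 to 0.40 in Chemo, -0.070 to 0.44 in MC, -0.17 to 0.33 in MC + Chemo, and -0.40 to 0.11 in Lean, and for Slc25a37 from -0.13 to 0.13 in MC and -0.10 to 0.12 in MC + Chemo. MC + Chemo minus Chemo ranged from -0.095 to 0.52 for Hbb-bs, -0.26 to 0.53 for Hbb-bt, -0.23 to 0.49 for Alas2, -0.12 to 0.0025 for Bpgm and -0.015 to 0.076 for Mkrn1. MC + Chemo minus MC ranged from -0.31 to 0.18 for Fech, -0.099 to 0.15 for Slc25a37 and -0.26 to 0.0065 for Bpgm. MC minus Chemo ranged from -0.26 to 0.15 for Hba-a1, -0.31 to 0.11 for Hba-a2, -0.051 to 0.44 for Fech and -0.077 to 0.18 for Bpgm. Lean minus Chemo ranged from -0.19 to 0.019 for Fech, Lean minus MC from -0.052 to 0.072 for Mkrn1, and the Fech interaction from -0.48 to 0.0033. The Hba-a1 to Hbb-bs ratio difference from CTRL ranged from -0.16 to 0.11 in Lean and -0.25 to 0.012 in MC + Chemo, Alas2 to Hbb-bs in Chemo from -0.077 to 0.14, and Hbb-bt to Hbb-bs from -0.12 to 0.17 in MC, -0.11 to 0.18 in MC + Chemo and -0.042 to 0.25 in Lean. Depth limits Alas2 most, with as few as 5 reads in a library.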

Other observations

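Besides Hba-a1, Hba-a2 and Hbb-bs, 2 genes lay above every CTRL tumor in all 20 other tumors. Btbd6, an adaptor of a ubiquitin ligase, had means of 21.4 normalized counts in CTRL and 40.1 in the other tumors, and the DNA repair gene Mgmt had 21.5 and 35.1. Both were named after their values were seen. The closest values of the 2 sides were 25.6 and 27.0 for Btbd6 and 25.1 and 26.2 for Mgmt, and neither stayed separated when counts were scaled to the murine total of each library.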
